A study of Mus musculus with 18 samples.

Results

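The transcriptional response of MIN6 cells to proinflammatory cytokines was measured while the cells were under the polyamine analogue DENSpm. MIN6 is an established insulin-secreting line from a mouse beta cell tumour. The comparison comprised 6 of the 18 libraries of the study, chosen by their labels: 3 from cells given 10 µM DENSpm alone and 3 from cells given 10 µM DENSpm with a cytokine mix, made of interleukin 1 beta, interferon gamma and tumour necrosis factor alpha. Both groups carried the drug and were collected after 24 h, so the contrast is the effect of the cytokines on a background of DENSpm. Set beside it are cells given vehicle with and without the same mix, and cells given 5 mM DFMO with and without it, each again as 3 libraries at 24 h. The replicates are labelled biological, without saying what separated them, so the p-values rest on the variation among libraries of a single line, which may be technical.

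Interferon gamma acts through the JAK-STAT pathway, whose factors bind GAS elements, and through IRF factors, which bind ISRE elements. Its known targets include the guanylate-binding GTPases, the chemokine Cxcl9 and the machinery that loads peptides on MHC class I molecules. Tumour necrosis factor and interleukin 1 act mainly through NF-kB, and the 3 cytokines together are a standard model of the islet inflammation of type 1 diabetes. DENSpm is an analogue of spermine that induces polyamine catabolism and lowers polyamine pools, whereas DFMO inhibits ornithine decarboxylase, the enzyme that makes putrescine.

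The deposited values are raw read counts per annotated row, and the bulk of them came from rows with a second gene on the other strand. Rows with an exon overlapping one of that gene's held 80.7% to 83.6% of the counts in DENSpm and 83.2% to 84.7% with cytokines, and the 76 rows of ribosomal protein genes held 0.0948% to 0.113% and 0.0975% to 0.159%. The reads thus appear to have been counted on the opposite strand. Rows are given with both names, their own symbol and the gene facing them, and their changes are changes of the row, not assigned to either gene. Rows without such a gene are given under their own symbol. Where 2 rows face each other, as those of Tap1 and Psmb9 or of Parp9 and Dtx3l do, the files do not separate their transcripts.

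The clearest case is a microRNA gene on the minus strand, Mir6381 (GRCm38 chromosome 3, 142623860 to 142623946; gene ID 102465200). It overlaps the end of exon 2 of Gbp2, which encodes an interferon-induced GTPase, by 24 coding bases. The stretch is shown because the most responsive row of the comparison rests on it. It was read from 2 GENCODE M21 transcripts of Gbp2 (GRCm38, plus strand, chr3:142623800-142623883), and capitals mark the bases that Mir6381 shares on the other strand.
Gbp2 exon 2: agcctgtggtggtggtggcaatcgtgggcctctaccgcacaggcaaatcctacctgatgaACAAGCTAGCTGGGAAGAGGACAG

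Promoters of genes facing, or named for, rising rows were searched for 3 motifs in the 250 bases before the start given by RefSeq (GRCm38.p6). The letters, on either strand, were TTCNNNGAA for GAS, GAAA and GAAA with any 2 bases between them for ISRE, and GGG and TTTCC with any 2 bases between them for the kB site that NF-kB binds. GAS and ISRE matches were counted separately and may overlap. An ISRE match was present in 936 of 27025 genes with a promoter (3.46%), a GAS match in 8.13% and a kB match in 1.65%. RefSeq promoters were matched for 67 of the 110 genes facing a rising row, and 7 of these held an ISRE match (10.4%), against 40 of 1345 genes facing any tested row (2.97%). A GAS match was present in 7.46% of the 67 and a kB match in 1.49%, against 6.17% and 1.12% of the 1345. Of 41 genes facing a falling row, 4.88% held an ISRE, 12.2% a GAS and 0 a kB match. Of 31 rising symbols with no exon opposite that were matched (of 48), 8 held an ISRE match (25.8%), 7 a GAS match (22.6%) and 2 a kB match (6.45%). The 8 with ISRE were Gbp3, Gbp5, Gbp7, Igtp, Irgm2, Rsad2, B2m and H2-T23. A match describes letters and not binding. For each of 9 genes named below, 1 ISRE match is shown, with the motif in capitals. The capitals are alike because they were searched for. Gbp3 has another ISRE match at -39, which overlaps the match shown and is only partly in capitals. The matches shown belong to rising rows or to genes facing one.
Gbp2 (chr3:142620594-142620623, plus strand): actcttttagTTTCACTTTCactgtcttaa
Gbp3 (chr3:142559989-142560018, plus strand): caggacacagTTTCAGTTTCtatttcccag
Gbp5 (chr3:142496759-142496788, plus strand): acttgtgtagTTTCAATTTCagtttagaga
Gbp7 (chr3:142530273-142530302, plus strand): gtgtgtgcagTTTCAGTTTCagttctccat
Igtp (chr11:58199512-58199541, plus strand): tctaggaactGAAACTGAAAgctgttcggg
Irgm2 (chr11:58214903-58214932, plus strand): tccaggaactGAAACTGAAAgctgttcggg
B2m (chr2:122147538-122147567, plus strand): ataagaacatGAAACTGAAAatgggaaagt
H2-T22 (chr17:36042914-36042943, minus strand): attggcttagTTTCACTTTCgaatccccaa
Tmem140 (chr6:34863073-34863102, plus strand): gttaaaaaacGAAAGTGAAAtcagctgaga
Nfkb2, the gene of an NF-kB subunit, has 3 RefSeq starts, and 2 of them have a kB match in the window, 1 at -11 and 1 at -225 from its start; both are shown.
Nfkb2 (chr19:46304716-46304736, plus strand): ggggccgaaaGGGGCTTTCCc
Nfkb2 (chr19:46305695-46305724, plus strand): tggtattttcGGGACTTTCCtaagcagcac
The whole upstream window of Tmem140 (chr6:34862896-34863145, plus strand), with its ISRE match again in capitals, is given as the promoter of the gene facing the second most responsive row.
Tmem140: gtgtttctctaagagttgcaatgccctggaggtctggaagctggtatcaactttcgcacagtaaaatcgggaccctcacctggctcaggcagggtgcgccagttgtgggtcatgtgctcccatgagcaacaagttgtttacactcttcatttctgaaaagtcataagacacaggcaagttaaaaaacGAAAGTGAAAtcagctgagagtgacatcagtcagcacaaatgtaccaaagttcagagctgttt

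In DENSpm-treated cells the cytokines raised rows of, or facing, interferon-response, antigen-presentation and chemokine genes together with others such as Gdnf, many of them from near 0, and lowered other rows by smaller factors. Of 3315 rows tested, 246 were called (7.42%) by edgeR's quasi-likelihood test at an adjusted p under 0.05, with 158 higher (4.77%) and 88 lower (2.65%). The median log2 fold change was 2.08 among the higher rows and -0.94 among the lower rows, against -0.0064 over all rows tested. Changes of at least 8-fold were estimated in 62 higher rows and in 0 lower rows. The 3 libraries of each group did not overlap in 152 of the 158 higher and 84 of the 88 lower rows, where 21.5% of all rows tested had no overlap. Levels are given as CPM, counts per 1000000 counts of a library scaled by TMM factors, in the order of replicates 1, 2 and 3, and log2 fold changes with their standard error.

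The calls differed by the level without cytokines. Among 700 rows under 20 CPM in DENSpm, 60 rose with a median log2 fold change of 4.99 and 0 fell. Among 217 rows of at least 1000 CPM, 19 rose with a median of 0.53 and 17 fell with a median of -0.75. A row under 20 CPM has little room to fall at this depth. Of the 158 higher rows, 64 would not have passed the count filter on the libraries without cytokines, so they entered the test through libraries with cytokines, and their direction is no independent support. The rows called higher took 5.21% to 6.05% of all counts in DENSpm and 14.9% to 15.3% with cytokines, and Mir6381 alone took 3.25% to 4.12% of the latter.

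Library totals ran from 454165 to 639625 counts, which leaves rows of a few CPM to 1 or 2 reads. Pearson correlations of log2 CPM between replicates, across rows, were 0.914 to 0.927 in DENSpm and 0.911 to 0.924 with cytokines. Of 20 beta cell markers, 18 had counts under their own symbol and summed to 2151 to 2488 CPM in DENSpm and 2070 to 2832 with cytokines, with Ucn3 among those at 0. The 3 rows facing beta cell markers summed to 24093 to 37276 CPM in DENSpm and 20076 to 27332 with cytokines. Leukocyte markers had counts in 1 of 6 genes, up to 3.82 CPM in DENSpm and up to 2.36 with cytokines, with Ptprc, Cd3e, Itgam and Adgre1 among those at 0. All 3 endothelial markers were at 0, the PP cell marker Ppy was at 0, and fibroblast, acinar, ductal and delta cell markers reached 2.36, 4.72, 9.73 and 26.5 CPM. Alpha cell markers had counts in 2 of 6 genes and summed to 63.0 to 153 CPM in DENSpm and 28.3 to 58.5 with cytokines, with Irx1 and Irx2 among those at 0. Their part in the results was not tested. The values of cell types other than beta cells are those of rows under their own symbol. Since the reads appear to have been counted on the opposite strand, 0 or few counts in these rows do not show a cell type to be absent. In bulk libraries, fewer cells of a type and less RNA per cell cannot be told apart.

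The interferon response list, of GTPases and antiviral effectors, held the 3 rows of lowest p. It comprised 79 genes, and 17 rows passed the filter, of which 15 rose and 0 fell. All 6 rows assigned by the gene opposite rose, and 9 of 11 assigned by their own symbol did. Only 3 of the 6 and 2 of the 11 would have passed the filter without cytokine libraries, so these counts describe the rows and do not support a direction.

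Mir6381, opposite Gbp2, was at 0, 0 and 0 CPM in the 3 DENSpm libraries and at 42985, 38017 and 34825 CPM with cytokines. The ratio was at least 19100-fold, computed against a floor of 3 counts over the 3 libraries. The row of Gbp2 itself was at 0, 0 and 0 CPM without and 143, 229 and 89.6 CPM with cytokines, at least 80.4-fold higher. Both rows had 0 counts in every DENSpm library and counts in every library with DENSpm and cytokines. Without drug, Mir6381 was likewise at or near 0 before cytokines, with 0, 0 and 4.76 CPM in vehicle and 45879.7, 42109 and 42464 CPM with cytokines.

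The row of 3110062M04Rik, opposite the transmembrane protein gene Tmem140, stood at 0, 15.3 and 5.96 CPM without and 4622, 4853 and 5531 CPM with cytokines. Its log2 fold change was 9.35 ± 0.30 (adjusted p = 1.6e-20 by edgeR). The groups did not overlap, and the levels without cytokines were those of a few reads. The row of Parp9, opposite Dtx3l, went from 139, 118 and 191 to 2493, 2020.2 and 2131 CPM, a log2 fold change of 3.89 ± 0.17 (adjusted p = 5.98e-17 by edgeR). Dtx3l encodes a ubiquitin ligase that forms a complex with the ADP-ribosyltransferase PARP9, and its own row, opposite Parp9, also rose (2.03 ± 0.31, adjusted p = 2.49e-05 by edgeR).

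The row of Numa1 faces Il18bp, the gene of a secreted inhibitor of interleukin 18. Its values were 95, 355 and 75.5 CPM in DENSpm and 4091, 3588 and 3188 CPM with cytokines. DENSpm 2 stood above the other DENSpm libraries, and every library with cytokines lay far above it. The log2 fold change was 4.35 ± 0.45 (adjusted p = 6.16e-05 by edgeR). The row of Mb, opposite the apolipoprotein L gene Apol6, rose from 0, 1.91 and 9.94 to 121, 117 and 156 CPM (4.93 ± 0.52, adjusted p = 3.3e-08 by edgeR).

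Among the list's rows with no exon opposite, Ifi27l2a, a small interferon-induced mitochondrial protein gene, was the most abundant. It went from 817, 536 and 959.8 to 5092, 5795 and 6361 CPM, a log2 fold change of 2.90 ± 0.17 (adjusted p = 3.54e-14 by edgeR). The guanylate-binding protein gene Gbp7 went from 4.42, 7.63 and 1.99 to 162, 185 and 129.7 CPM (5.00 ± 0.47, adjusted p = 3.17e-09 by edgeR). Its relatives Gbp3 and Gbp5 had 0 counts in all DENSpm libraries and were at least 58.1-fold and 21.3-fold higher with cytokines. The immunity-related GTPase genes, which act against intracellular pathogens, behaved alike in 3 of 4 cases: Igtp, Iigp1 and Irgm2 rose from 0 counts by at least 28.9-fold, 25.3-fold and 14.1-fold, while Irgm1 was not called (1.03 ± 0.80, adjusted p = 0.57 by edgeR). Parp14, an ADP-ribosyltransferase gene, rose by 3.54 ± 0.83 (adjusted p = 0.00566 by edgeR). Rsad2, the antiviral gene of viperin, rose on 2 counts in DENSpm with a ratio of 23.1 (95% counting interval 6.06 to 197). The call for Rsad2 was lost without DENSpm with cytokines 2, DENSpm 1 or DENSpm 3, with an adjusted p of up to 0.0627 by edgeR. Ido1, a tryptophan-degrading enzyme, had a log2 fold change of 0.98 ± 0.38 that was not called (adjusted p = 0.13 by edgeR). These GTPase families have close copies in the genome, so the division of reads between their members is uncertain.

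**Figure D1:**
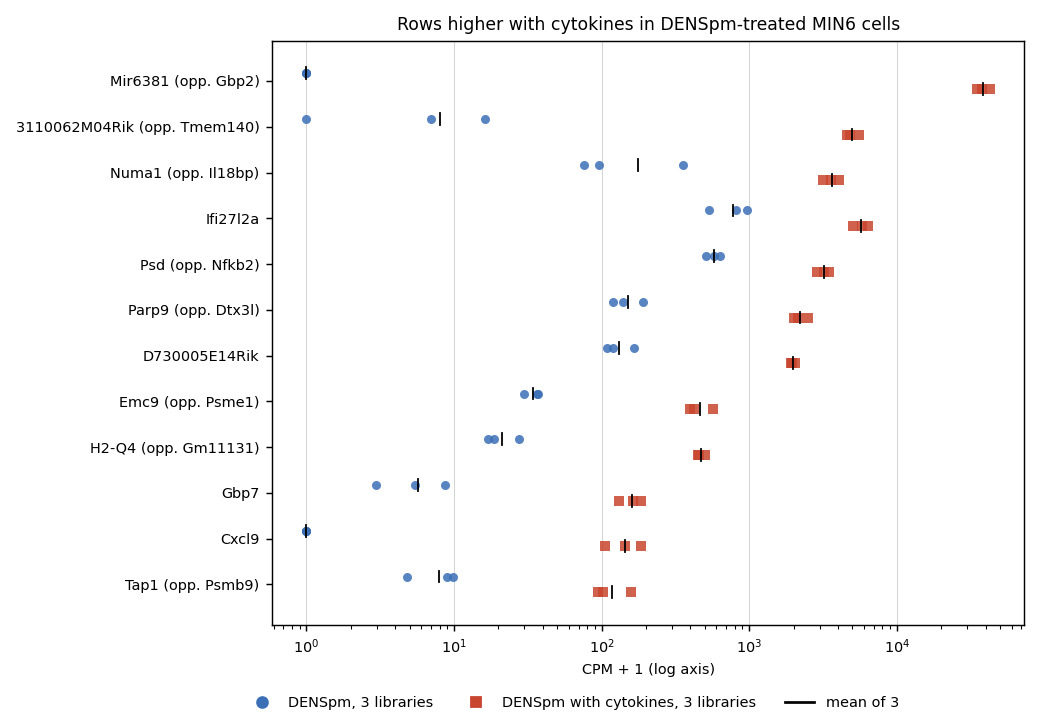
Each row of the plot is a row of the count table with the gene opposite it, and the horizontal axis gives CPM + 1 on a log axis. Circles are the 3 DENSpm libraries, squares the 3 with cytokines and bars the means; the groups do not overlap in any of the 12 rows, and Mir6381 and Cxcl9 are at 0 CPM in all DENSpm libraries.

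Among cytokine receptors and IRF factors, the rows facing Irf3 (-0.53 ± 0.67, adjusted p = 0.759 by edgeR) and Il1rap (0.54 ± 0.22, adjusted p = 0.15 by edgeR) were not called, and neither were Il1r1, Il6st and Tnfrsf1a. Csf1, a macrophage growth factor gene, had a large but uncertain value (4.26 ± 1.41, adjusted p = 0.0623 by edgeR).

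For NF-kB the measured rows were few, 3 of a list of 42 genes, and the strongest was the row of Psd, opposite Nfkb2. Nfkb2 encodes the p100 precursor of an NF-kB subunit and is itself a known NF-kB target. Its opposite row stood at 636, 573 and 513 CPM without and 3498, 2894 and 3239 CPM with cytokines. All libraries with cytokines lay far above all libraries without. The log2 fold change was 2.48 ± 0.15 (adjusted p = 9.64e-14 by edgeR). The row facing Nfkbib (1.70 ± 0.70, adjusted p = 0.173 by edgeR) and that of Cfb (-0.46 ± 0.21, adjusted p = 0.229 by edgeR) were not called.

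Both chemokine rows tested rose. Neither would have passed the filter without cytokine libraries, so these rises do not support a direction. Cxcl9, a chemokine that attracts T cells, was at 0, 0 and 0 CPM in DENSpm and 143, 183 and 104 CPM with cytokines, at least 73.2-fold higher. The row of Zmynd15, opposite the chemokine gene Cxcl16, went from 4.42, 1.91 and 11.9 to 91, 118 and 70.7 CPM (3.89 ± 0.64, adjusted p = 7.49e-05 by edgeR). The row of Cxcl10, named after its values were seen since it faces Art3 and so falls outside the list, rose from 0 counts to 28.2, 89.2 and 25.9 CPM, at least 25.9-fold.

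Most tested antigen presentation rows rose. Of 34 genes listed, 17 rows were tested, 12 rose and 0 fell; 7 of 8 rose by the gene opposite and 5 of 9 by their own symbol. Only 6 of the 17 would have passed the filter on libraries without cytokines, 3 of which rose. The row of Emc9, opposite the proteasome activator gene Psme1, was at 28.7, 36.3 and 35.8 CPM in DENSpm and 398, 419.9 and 568 CPM with cytokines. That was a log2 fold change of 3.76 ± 0.25 (adjusted p = 8.26e-13 by edgeR). The row of Cast, opposite Erap1, whose product trims peptides in the endoplasmic reticulum, went from 37.5, 21 and 29.8 to 234, 169 and 167 CPM (2.69 ± 0.34, adjusted p = 1.21e-06 by edgeR). All libraries with cytokines lay above all libraries without in both rows.

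The row of Tap1, opposite the immunoproteasome subunit gene Psmb9, rose from 8.84, 3.82 and 7.95 to 93.1, 101 and 158 CPM (4.06 ± 0.60, adjusted p = 1.34e-05 by edgeR). The row of Psmb9, opposite the peptide transporter gene Tap1, rose on 3 counts in DENSpm with a ratio of 35.5 (95% counting interval 11.8 to 175). The row of 9330175E14Rik faces Nlrc5, the transactivator of MHC class I genes, and rose from 0, 3.82 and 1.99 to 88.8, 89.2 and 127 CPM, a ratio of 49.2 (95% counting interval 16.5 to 241) on 3 counts. The row of Dexi faces Ciita, the transactivator of class II genes, and rose from 0 counts by at least 17.1-fold. Rows facing regulators of both MHC classes were thus called higher.

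Among the MHC genes themselves, the row of H2-Q4, opposite Gm11131, went from 17.7, 26.7 and 15.9 to 450.5, 499 and 455 CPM (4.52 ± 0.31, adjusted p = 2.02e-12 by edgeR). Gm6034, opposite Gm11127, went from 28.7, 34.4 and 45.7 to 273, 344 and 306 CPM (3.07 ± 0.28, adjusted p = 2.88e-09 by edgeR). The row of A930015D03Rik, opposite the class I-like gene H2-T22, rose from 2.21, 57.3 and 11.9 to 188, 249.7 and 342 CPM (3.39 ± 0.45, adjusted p = 4.05e-06 by edgeR). DENSpm 2 was the highest of its group here too. With no exon opposite, the class I heavy chain gene H2-K1 (2.61 ± 0.51, adjusted p = 0.000647 by edgeR), H2-T23 (4.26 ± 0.74, adjusted p = 0.000192 by edgeR) and H2-T24 (0.93 ± 0.16, adjusted p = 0.000152 by edgeR) rose. The light chain gene B2m rose from 0 counts by at least 21.3-fold. Psme2, partner of Psme1, rose from 0 counts by at least 9.19-fold, but that call was lost without DENSpm with cytokines 2 or 3 and without any 1 DENSpm library, and with the replicate number as a block, with an adjusted p of up to 0.125 by edgeR. The row facing H2-DMa (0.81 ± 0.77, adjusted p = 0.663 by edgeR) and those of Psmb10, Tapbpl, Calr and Canx were not called. Class I genes are near copies of each other, and the division of reads between them is uncertain.

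By position, the span of the rows named H2- on chromosome 17 (33974659 to 37483552, GRCm38) held 34 tested rows, of which 13 rose and 0 fell, among them C2, opposite Zbtb12, Cdsn and Nelfe beside the MHC rows. The 151 tested rows on the rest of chromosome 17 held 6 that rose. The span was chosen after the values were seen. Some of the 13, such as H2-K1 and H2-T23, would not have passed the filter without cytokine libraries, so the count supports no direction. The call for C2 was lost without DENSpm with cytokines 2 (adjusted p = 0.0744 by edgeR).

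Among cell death genes, 2 of 7 rows tested rose and 0 fell, where 4.77% of all rows tested rose and 2.65% fell. The row of Bcl2l13, opposite the proapoptotic gene Bid, went from 26.5, 26.7 and 19.9 to 136, 156 and 89.6 CPM (2.38 ± 0.40, adjusted p = 9.88e-05 by edgeR). Mlkl, whose product executes necroptosis, went from 8.84, 0 and 11.9 to 99.6, 87.6 and 66 CPM (3.58 ± 0.66, adjusted p = 0.000308 by edgeR). Rows facing Bad, Casp9 and Diablo and those of Casp6 and Tnfrsf10b were not called. Mlkl would not have passed the filter without cytokine libraries, so its rise does not support a direction.

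Several of the most responsive rows belonged to none of these groups. D730005E14Rik, with no gene opposite, went from 108, 164 and 119 to 2034, 1933 and 1945 CPM (3.91 ± 0.18, adjusted p = 8.09e-17 by edgeR). Its 3 libraries with cytokines lay close together, far above the others. Gdnf, the gene of a neurotrophic factor, was at 0, 0 and 0 CPM without and 179.8, 136 and 120.2 CPM with cytokines, at least 71.6-fold higher. Ppp4r4, a regulatory subunit of protein phosphatase 4, rose from 0, 0 and 0 to 104, 139 and 96.7 CPM, at least 57.4-fold. Gm9199 (6.26 ± 0.54, adjusted p = 1.84e-09 by edgeR) and the row of Tmem200a, opposite Gm9767 (5.01 ± 0.45, adjusted p = 1.84e-09 by edgeR), rose as well. Gpx3, a secreted glutathione peroxidase gene, was the 1 called row of 4 tested among oxidative stress genes and rose from 17.7, 19.1 and 29.8 to 154, 109 and 203 CPM (2.78 ± 0.37, adjusted p = 3.28e-06 by edgeR).

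Abundant rows rose by smaller factors. Of the 19 rising rows of at least 1000 CPM, the 3 of lowest p, named after their values were seen, face Gspt1, Ergic2 and Mpc1. The row of 2610020C07Rik, opposite the translation termination factor gene Gspt1, went from 4921, 4352 and 5266 to 9105, 9054 and 9020.4 CPM (0.90 ± 0.12, adjusted p = 1.51e-06 by edgeR). The row of 4930506C21Rik, opposite Mpc1, a subunit of the mitochondrial pyruvate carrier, went from 3572, 1888 and 4324 to 7701, 8115 and 7943 CPM (1.28 ± 0.18, adjusted p = 4.5e-06 by edgeR). The libraries with cytokines were close together in both rows, and DENSpm 2 was the lowest of the others. The row of 4732416N19Rik, opposite the trafficking gene Ergic2, rose by 1.17 ± 0.16 (adjusted p = 2.53e-06 by edgeR). The row of Gm15441, opposite Txnip, whose product inhibits thioredoxin and responds to glucose in beta cells, went from 276, 336 and 391 to 519.8, 631 and 799 CPM (0.95 ± 0.17, adjusted p = 0.000261 by edgeR). The row of Srr, opposite the ribosome biogenesis gene Tsr1, rose from 3854, 4023 and 4020.2 to 5542, 5669.9 and 5701 CPM (0.51 ± 0.12, adjusted p = 0.00393 by edgeR), whereas the row of Tsr1, opposite Srr, was not called (0.03 ± 0.15, adjusted p = 0.948 by edgeR). With only the libraries compared the call for Srr was lost (adjusted p = 0.0504 by edgeR, the highest of its alternatives).

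The falling rows of lowest p included growth, signalling and noncoding genes. A230070E04Rik, a row not placed by the annotation, had the lowest p. It went from 14163, 19389.8 and 13129.7 to 5793, 6163 and 8047 CPM, a log2 fold change of -1.22 ± 0.14 (adjusted p = 2.79e-07 by edgeR). Igf2, the gene of insulin-like growth factor 2, has Igf2os on the other strand, and its row fell from 1813, 1659 and 1417 to 524, 589 and 844 CPM (-1.32 ± 0.16, adjusted p = 5.96e-07 by edgeR). The groups were apart in both. The row of Igf2os, opposite Gm49394 and Igf2, was at 2319, 1846 and 1977 CPM without and 1440.2, 1219 and 1507 CPM with cytokines (-0.56 ± 0.14, adjusted p = 0.00899 by edgeR). Its call was lost without DENSpm with cytokines 2 (adjusted p = 0.0822 by edgeR) and without DENSpm 1 (adjusted p = 0.0818 by edgeR); over its alternatives the adjusted p ran from 0.00135 to 0.0822.

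The row of Bach2os, opposite Bach2, a transcriptional repressor gene linked to type 1 diabetes risk in human, had the largest fall among rows of lowest p. Its values were 267, 393 and 227 CPM in DENSpm and 60.6, 38.9 and 77.8 CPM with cytokines, a log2 fold change of -2.35 ± 0.33 (adjusted p = 6.23e-06 by edgeR). The highest library with cytokines was well below the lowest without. Pde1b, a cyclic nucleotide phosphodiesterase gene, went from 276, 240.5 and 262 to 78, 76.2 and 101 CPM (-1.61 ± 0.24, adjusted p = 1.93e-05 by edgeR). The galanin receptor gene Galr1 went from 574, 851 and 505 to 259.9, 298 and 335 CPM (-1.11 ± 0.19, adjusted p = 0.000119 by edgeR). Anxa13, an annexin gene, had a log2 fold change of -2.17 ± 0.38 (adjusted p = 0.000182 by edgeR).

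The row of E230016M11Rik faces Gadd45a, a gene induced by DNA damage and growth arrest, and fell from 4254, 4676 and 4742 to 2092, 2764 and 3098 CPM (-0.78 ± 0.13, adjusted p = 9.73e-05 by edgeR). The row of Sorbs2os, opposite the cytoskeletal adaptor gene Sorbs2, went from 2277, 2044 and 2023 to 1081, 1159 and 1224 CPM (-0.87 ± 0.14, adjusted p = 4.92e-05 by edgeR). A230072E10Rik, opposite Fam120c (-1.12 ± 0.16), Mroh2a (-0.78 ± 0.13), 6430503K07Rik (-0.88 ± 0.15) and Gm45916 (-0.74 ± 0.13) completed the 12 falling rows of lowest p, with adjusted p from 1.2e-05 to 1.92e-04 by edgeR.

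The largest falls by fold rested on few counts. Tnr, opposite Gm38039 (-2.92 ± 0.73), 4921525O09Rik (-2.83 ± 0.75), 1700010B08Rik (-2.81 ± 0.80), 1700071M16Rik, opposite Pla2g7 (-2.75 ± 0.66), 1700039E22Rik (-2.75 ± 0.77) and E130310I04Rik, opposite Mylk (-2.63 ± 0.81), were all at 90.6 CPM or less in every library. Each of these 6 calls was lost without at least 1 library. Tnr was lost without DENSpm 1 (adjusted p = 0.0602 by edgeR), as was 1700071M16Rik (adjusted p = 0.0627 by edgeR). 4921525O09Rik was lost without DENSpm with cytokines 2 or 3 or DENSpm 1, with a highest adjusted p of 0.117 by edgeR. 1700010B08Rik was lost without DENSpm with cytokines 1 or 3 or DENSpm 3, with a highest adjusted p of 0.104 by edgeR. 1700039E22Rik was lost without DENSpm with cytokines 1 or 3 or DENSpm 1 or 2, with a highest adjusted p of 0.0933 by edgeR. E130310I04Rik was lost without DENSpm with cytokines 1 or 3 or DENSpm 2 or 3, with a highest adjusted p of 0.216 by edgeR.

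**Figure D2:**
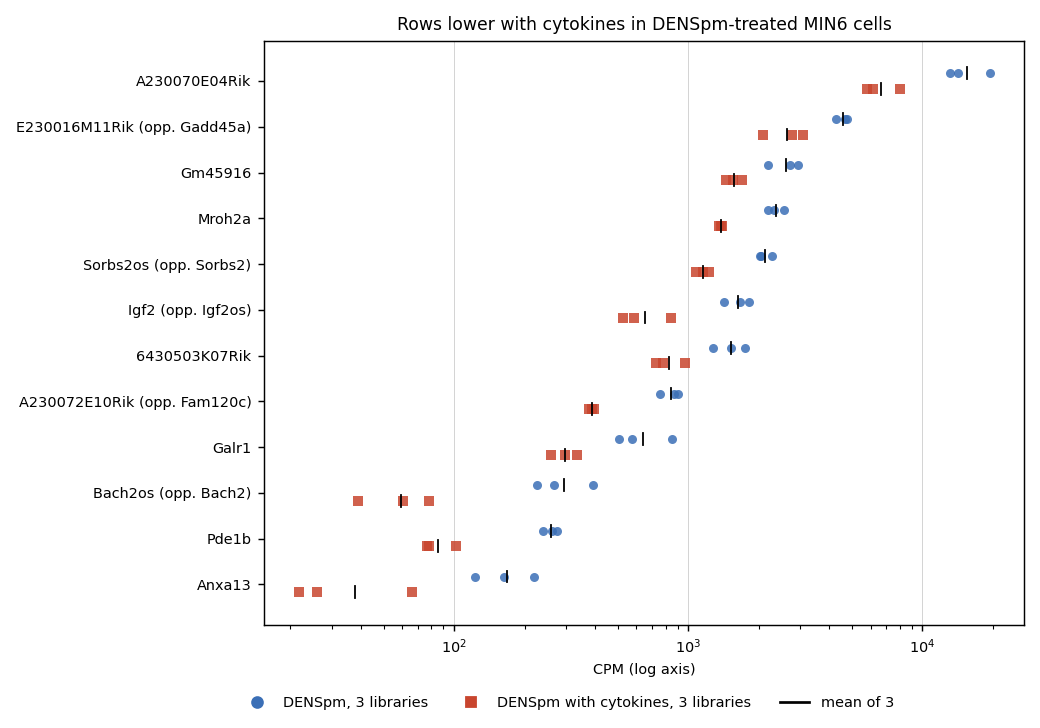
The 12 falling rows of lowest p are plotted with CPM on a log axis, as circles for the 3 DENSpm libraries, squares for the 3 with cytokines and bars for the means. The groups do not overlap in any of the 12 rows, and most means lie within about 3-fold of each other.

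Beta cell genes were mostly not called, which does not show that they were unchanged. Of 28 rows tested from a list of 58 identity and secretion genes, 4 fell and 0 rose, and all 28 would have passed the filter without cytokine libraries. Besides Bach2os, these were Kcnmb4os1 and Kcnmb4os2, both opposite the potassium channel subunit gene Kcnmb4, and Scg2, the gene of secretogranin 2. Kcnmb4os1 went from 417, 311 and 397 to 143, 203 and 226 CPM (-0.97 ± 0.23, adjusted p = 0.00471 by edgeR). Since it lies opposite the same gene, Kcnmb4os2 (-0.83 ± 0.23, adjusted p = 0.0192 by edgeR) is not independent of it, and its call was lost without DENSpm with cytokines 2 or 3 or DENSpm 1, with a highest adjusted p of 0.123 by edgeR. Scg2 went from 281, 254 and 231 to 141, 138 and 73.1 CPM (-1.11 ± 0.28, adjusted p = 0.0106 by edgeR), and its call was lost without DENSpm with cytokines 3 (-0.88, adjusted p = 0.0802 by edgeR).

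The rows of Pcsk2os1 and Pcsk2os2 face Pcsk2, a convertase that processes proinsulin, and were among the most abundant of all. Pcsk2os1 was at 17109.5, 10053 and 14457 CPM in DENSpm and 9239, 9845 and 11684 CPM with cytokines, a log2 fold change of -0.44 ± 0.15 that was not called (adjusted p = 0.0667 by edgeR). DENSpm 2 lay within the range of the libraries with cytokines. Without DENSpm 2 the value was -0.63 (adjusted p = 2.43e-04 by edgeR) and without DENSpm with cytokines 3 it was -0.55 (adjusted p = 0.0268 by edgeR), and over its alternatives the adjusted p ran from 2.43e-04 to 0.448. Pcsk2os2 had -0.43 ± 0.15 (adjusted p = 0.0739 by edgeR), -0.59 without DENSpm 2 (adjusted p = 0.00189 by edgeR) and -0.62 without DENSpm with cytokines 3 (adjusted p = 0.00597 by edgeR), in a range of 0.00189 to 0.46.

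Ins2, an insulin gene, was at 322, 169.9 and 332 CPM without and 156, 298 and 77.8 CPM with cytokines, and the groups overlapped. Its log2 fold change was -0.60 ± 0.39 (adjusted p = 0.474 by edgeR), and -1.22 without DENSpm with cytokines 2 (adjusted p = 0.0435 by edgeR), in a range of 0.0435 to 0.804. Chga, the gene of chromogranin A in secretory granules, had 0.12 ± 0.15 (adjusted p = 0.742 by edgeR). Ins1 had too few counts under its own symbol to be tested, 19 over the DENSpm libraries and 4 with cytokines. With reads that appear to have been counted on the opposite strand, this does not show its transcript to be scarce. Iapp, Pdx1, Nkx6-1, Pax6, Chgb and Kcnj11 were not called.

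Rows of the integrated stress response and of endoplasmic reticulum stress showed 0 calls among 32 tested, where 7.42% of all rows were called. The rows of Ddit3, opposite Mars, at 914, 804 and 860.5 CPM without and 838, 885 and 962 CPM with cytokines, and of Mars, opposite Ddit3, at 309, 384 and 322 and 329, 373 and 344 CPM, overlapped between groups (0.06 ± 0.14 and 0.04 ± 0.18, adjusted p = 0.888 and 0.937 by edgeR). Ddit3 encodes the stress-induced factor CHOP. Atf4, Hspa5, Xbp1 and Asns were not called either.

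In the cell cycle list, 2 of 32 rows tested fell, where 2.65% of all rows tested fell. The row of Ints8 faces Ccne2, the gene of cyclin E2, which drives entry into S phase. It stood at 9061, 7138 and 11878 CPM in DENSpm and 5479, 6644 and 4843 CPM with cytokines, without overlap (-0.73 ± 0.15, adjusted p = 0.00108 by edgeR). Aurka, a mitotic kinase gene, went from 106, 84 and 49.7 to 28.2, 25.9 and 9.43 CPM (-1.87 ± 0.44, adjusted p = 0.00555 by edgeR). The row of Exosc9, opposite the cyclin A2 gene Ccna2, was at 6695, 3949 and 6514 CPM without and 5118, 4446 and 4883 CPM with cytokines and was not called (-0.25 ± 0.15, adjusted p = 0.405 by edgeR). Without DENSpm 2, the lowest library, its value was -0.47 (adjusted p = 0.00734 by edgeR), in a range of 0.00734 to 0.797.

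Polyamine metabolism, the target of DENSpm, gave 0 calls among 6 rows tested. Its best-known genes had too few counts: Odc1, ornithine decarboxylase, had 14 and 13 counts over the 3 libraries without and with cytokines, and Sat1, the acetyltransferase induced by polyamine analogues, 8 and 10. Srm had 7 and 2, Sms 0 and 2, and Smox and Amd1 had 0 in both. All of these are rows under their own symbol, with no exon opposite. Since the reads appear to have been counted on the opposite strand, low counts there do not show the transcripts to be scarce. The row of Particl, opposite the S-adenosylmethionine synthase gene Mat2a, had -0.16 ± 0.16 (adjusted p = 0.688 by edgeR), and the row of Vti1b, opposite the arginase gene Arg2, 0.24 ± 0.85 (adjusted p = 0.927 by edgeR). The row of the antizyme inhibitor gene Azin1 faces Gm49077, is not among the 6 and was not called (0.55 ± 0.90, adjusted p = 0.835 by edgeR).

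The remaining lists held small numbers of rows, and 7.42% of all 3315 rows tested were called. Of 16 mitochondrial and glycolysis rows, 1 rose (Gm15441, above) and 1 fell, that of Itgad, opposite the cytochrome oxidase subunit gene Cox6a2 (-1.20 ± 0.28, adjusted p = 0.00566 by edgeR), a call lost without DENSpm with cytokines 1 (adjusted p = 0.0523 by edgeR) or DENSpm 2 (adjusted p = 0.0691 by edgeR, the highest of its alternatives). Of 10 growth factor rows, Gdnf rose and the row of Gm11651, opposite the angiotensin-converting enzyme gene Ace, fell (-0.88 ± 0.24, adjusted p = 0.0192 by edgeR). The call for Gm11651 was lost without DENSpm with cytokines 2 or DENSpm 1 or 3, with a highest adjusted p of 0.11 by edgeR. Of 9 lipid and cholesterol synthesis rows 0 were called, and of 16 rows of RNA splicing and ribosome biogenesis the row of Srr was the 1 that was.

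**Figure D3:**
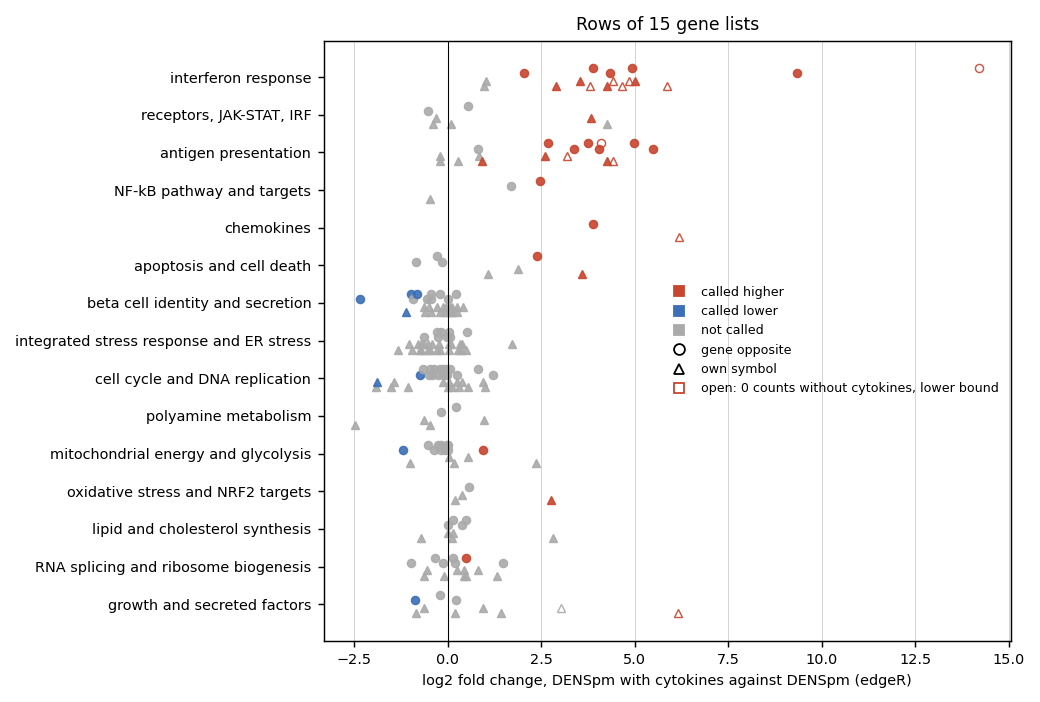
Each point is a tested row of 15 gene lists, placed by its log2 fold change with cytokines in DENSpm (edgeR); circles were assigned by the gene opposite, triangles by their own symbol, red was called higher, blue lower and grey not called. Open symbols had 0 counts in DENSpm and are drawn at their lower bound; the interferon, antigen presentation and chemokine rows lie to the right, and the beta cell, stress and cell cycle rows spread around 0.

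The cytokine effect without drug was taken from the same fit, in 6 other libraries. There 242 of 3315 rows were called (7.3%), 163 higher (4.92%) and 79 lower (2.38%). The count lower was 42 without vehicle with cytokines 3, 46 without vehicle 1, 50 without vehicle 2 and 123 with only the libraries compared. Rows higher in both numbered 115, 72.8% of those higher in DENSpm and 70.6% of those higher in vehicle. Rows lower in both numbered 35, 39.8% and 44.3%. No row was called in opposite directions. Of the 158 rows higher in DENSpm, 156 had a positive value in vehicle, with a median of 1.85 there against 2.08 in DENSpm. Of the 88 lower rows, 83 had a negative value in vehicle, with a median of -0.68 against -0.94. Rows chosen by their calls in DENSpm favour larger values there. Those chosen in vehicle showed the reverse, with medians of 1.93 in vehicle and 1.74 in DENSpm among higher rows, and of -0.94 and -0.59 among lower rows. Pearson's r of the log2 fold changes across the 3288 rows with counts in every group was 0.54; rows share libraries and are not independent.

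The difference of the effects was tested directly, as the log2 fold change in DENSpm minus that in vehicle. Of 3315 rows, 0 (0%) were called by edgeR and 0 by DESeq2, and 169 (5.1%) had an unadjusted p under 0.05. The 3 rows of lowest p were those of Adck5, opposite Cpsf1 (-2.51 ± 0.57), Myh7b, opposite Trpc4ap (-2.08 ± 0.53), and Bsg (3.14 ± 0.86), with a smallest adjusted p of 0.445 by edgeR. Among rows higher in both, the median standard error of the difference was 0.58 on the log2 scale, and the absence of calls does not show that the effects were alike.

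Single rows differed to varying degrees. Parp9 changed by 3.89 ± 0.17 in DENSpm and 3.87 ± 0.17 in vehicle, a difference of 0.02 ± 0.23. Emc9, opposite Psme1, changed by 3.76 ± 0.25 and 3.81 ± 0.23, a difference of -0.04 ± 0.37. Psd, opposite Nfkb2, changed by 2.48 ± 0.15 and 1.92 ± 0.14, a difference of 0.56 ± 0.20, with 720.4, 951 and 691 CPM in vehicle and 3056, 2739 and 3146 CPM with cytokines alone. The antigen presentation row A930015D03Rik, opposite H2-T22, changed by 3.39 ± 0.45 and 5.54 ± 0.55, a difference of -2.15 ± 0.78. The difference was -1.18 ± 0.43 for Gm6034, 0.87 ± 0.42 for H2-Q4 and -3.28 ± 1.10 for Tmem200a, which had 1 count in vehicle. Among falling rows, the difference was -0.25 ± 0.20 for A230070E04Rik, 0.33 ± 0.23 for Igf2 and -0.83 ± 0.45 for Bach2os. E230016M11Rik, opposite Gadd45a, changed by -0.78 ± 0.13 in DENSpm and by -0.27 ± 0.13 in vehicle, and Ddit3, opposite Mars, by 0.06 ± 0.14 and 0.54 ± 0.14. None of these differences was called by the test across all rows.

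**Figure D4:**
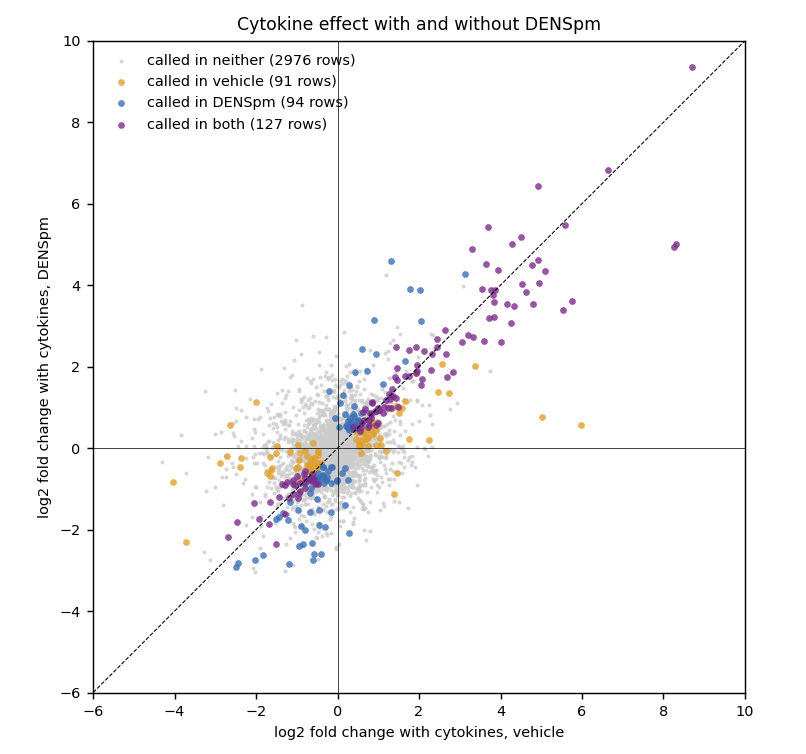
Each point is 1 of 3288 rows with counts in every group, with the log2 fold change with cytokines in vehicle on the horizontal and in DENSpm on the vertical axis and a dashed line of equality. Colours mark the 127 rows called in both, 94 in DENSpm alone and 91 in vehicle alone by the same threshold; some large rises, such as those of Tmem200a and A930015D03Rik, lie off the line, and 0 rows were called by the test of the difference.

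Against DFMO, the cytokine effect was compared in a fit of all 18 libraries. It differed in 10 of 3713 rows (0.269%), with 7 values higher (0.189%) and 3 lower (0.0808%) in DENSpm than in DFMO. The row of Rbbp4, opposite Sync, a gene of an intermediate filament protein, showed the lowest p. It was at 347, 495 and 358 CPM in DENSpm and 367, 383 and 361 CPM with cytokines, and at 241, 197 and 279 CPM in DFMO and 1405, 1170.4 and 1288 CPM with cytokines. The groups overlapped under DENSpm and were far apart under DFMO, and the difference of the log2 fold changes was -2.54 ± 0.25 (adjusted p = 2.55e-09 by edgeR).

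The row of Igf2os, which faces Gm49394 and Igf2, was at 11842, 11549.5 and 7472 CPM in DFMO and 2837, 2259 and 2621 CPM with cytokines. With DENSpm it was at 2289, 1805 and 1967 and 1403, 1194 and 1509 CPM, so DFMO without cytokines stood apart from the other groups. The difference was 1.44 ± 0.20 (adjusted p = 1.92e-05 by edgeR), with a log2 fold change of -0.56 in DENSpm. A similar arrangement, with the level highest in DFMO without cytokines, was seen for Carm1, opposite Yipf2 (0.98 ± 0.21), Gm11747, opposite C1qtnf1 (1.19 ± 0.27), and Nhsl1 (1.31 ± 0.30), with adjusted p of 0.023, 0.0352 and 0.0352 by edgeR. In the cytokine contrast within DENSpm, Carm1 was called (0.52 ± 0.15, adjusted p = 0.0322 by edgeR), but not without DENSpm with cytokines 3 (adjusted p = 0.336 by edgeR, the highest of its alternatives) or DENSpm 2 (adjusted p = 0.17 by edgeR).

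Ifi27l2a was the 1 interferon-response row among the 10. It rose in both backgrounds, to 4959.7, 5675 and 6369.7 CPM with DENSpm and 2769.7, 2605 and 2909.9 CPM with DFMO, from 807, 525 and 955 and 659.7, 696 and 687 CPM. The libraries with cytokines did not overlap between the drugs, and the difference was 0.88 ± 0.20 (adjusted p = 0.0354 by edgeR). In vehicle Ifi27l2a went from 758, 751 and 894 to 4529, 5325 and 5048 CPM. Its difference between DENSpm and vehicle was 0.25 ± 0.22 and was not called (adjusted p = 0.99 by edgeR). The row of Sdr39u1, opposite Khnyn, whose human product is a cofactor of an antiviral protein, was at 239.8, 325 and 253 CPM in DENSpm and 283, 287 and 288 CPM with cytokines. With DFMO it went from 304, 293 and 273 to 658, 556 and 723 CPM, and the difference was -1.09 ± 0.25 (adjusted p = 0.0352 by edgeR). Vehicle libraries went from 296, 364 and 364 to 767, 553 and 639.8 CPM, but the difference between DENSpm and vehicle was not called.

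The other 3 rows were 1700020L24Rik, opposite the metalloproteinase gene Mmp28 (-3.89 ± 0.77, at 131 CPM or less in every library), 4932702P03Rik, opposite Aldh5a1 (1.12 ± 0.24), and Hnrnpu, opposite Cox20 (0.87 ± 0.20), with adjusted p of 0.0114, 0.0298 and 0.0354 by edgeR. The count of 10 rows depended on single libraries. It was 3 without DENSpm with cytokines 3 or DFMO 2, 5 without DFMO with cytokines 1, DFMO with cytokines 3 or DFMO 1, and 16 without DENSpm 1. It was 2 with only the libraries compared, 17 on halved counts and 26 by DESeq2.

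**Figure D5:**
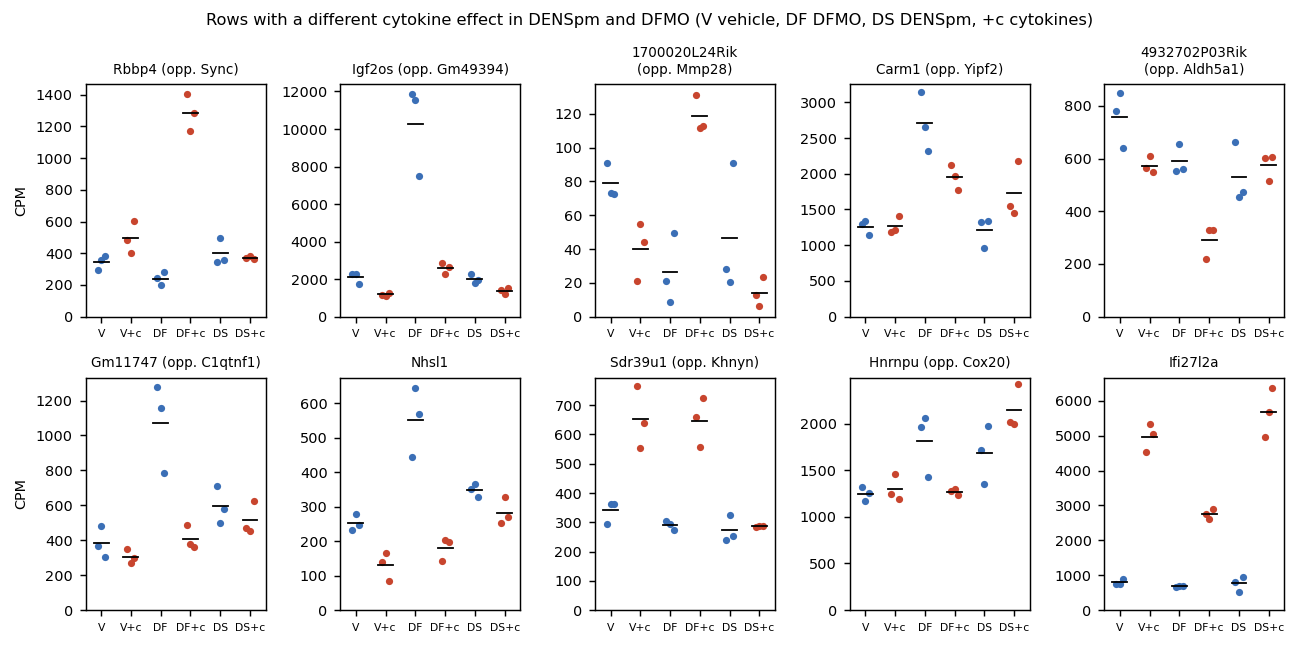
CPM of the 10 rows whose cytokine effect differed between DENSpm and DFMO, with 1 panel per row and the groups vehicle, DFMO and DENSpm without (blue) and with (red, +c) cytokines; points are libraries and bars the means of 3. Rbbp4 is highest in DFMO with cytokines, Igf2os in DFMO without cytokines, and Ifi27l2a with cytokines in all 3 backgrounds.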

How the data were processed

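Poly(A) RNA of MIN6 cells was sequenced with a strand-specific kit, per the labels' protocols. The authors deposited raw counts per row, for which the submitters' processing notes list HTSeq, FastQC, DESeq2 and mm10. Aligner, annotation and strand setting: not given in the sources used here. The deposited normalised tables were not used. Rows (24557, with 26 symbols repaired from dates and 328 not found) were placed on GENCODE M21 (GRCm38) by symbol or, failing that, by gene ID or synonym. The gene with the largest exon overlap on the other strand was noted, with protein-coding genes taken before others.

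Counts were tested in R 4.3.3 with edgeR 4.0.16 (TMM, filterByExpr, robust quasi-likelihood test, Benjamini-Hochberg adjustment over all rows tested, threshold 0.05), on the 12 libraries of vehicle and DENSpm, and on all 18 for the difference from DFMO. Standard errors are the log2 fold change divided by the root of F. A row at 0 counts in DENSpm has no fitted fold change printed: its bound uses a floor of 3 counts over the group. Ratios on 1 to 3 counts carry exact 95% counting intervals, which cover counting error only. DESeq2 1.42.0 served as an alternative; tables used Python 3.11.15. The fits were tested on simulated data. Totals of the 18 libraries ran from 403377 to 639625 counts.

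Named rows include the 12 of lowest p and 6 of largest fold change in each direction. These were taken among called rows without overlap and with at least 20 CPM in the higher group. Up to 5 called rows per list were added whatever their overlap or level. Up to 8 rows per test of a difference and a set of named genes were added whether called in DENSpm or not. Other list members are given for context. The rows, lists and tests were chosen with earlier results of these data known. Some genes of the lists are not reported here.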

Additional observations from a re-analysis of the deposited data

Results flagged for a closer look

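The cytokine effect differed between DENSpm and DFMO by the test of the difference in 10 rows of 3713, given as the log2 fold change in DENSpm minus that in DFMO. The value was lower in DENSpm for Rbbp4, opposite Sync (-2.54 ± 0.25), 1700020L24Rik, opposite Mmp28 (-3.89 ± 0.77), and Sdr39u1, opposite Khnyn (-1.09 ± 0.25). The effect on 1700020L24Rik had opposite signs, -1.76 in DENSpm and 2.13 in DFMO. In the fit of vehicle and DENSpm, the fall of 1700020L24Rik in DENSpm was not called (adjusted p = 0.0649 by edgeR). Its groups overlapped, at 70 counts without and 20 with cytokines. In the fit of all 18 libraries that fall had an adjusted p of 0.0493 by edgeR, and over its alternatives the range was 0.0165 to 0.577. The value was higher in DENSpm for Igf2os (1.44 ± 0.20), Nhsl1 (1.31 ± 0.30), Gm11747, opposite C1qtnf1 (1.19 ± 0.27), 4932702P03Rik, opposite Aldh5a1 (1.12 ± 0.24), Carm1, opposite Yipf2 (0.98 ± 0.21), Ifi27l2a (0.88 ± 0.20) and Hnrnpu, opposite Cox20 (0.87 ± 0.20). By edgeR the adjusted p ran from 2.55e-09 for Rbbp4 to 0.0354 for Ifi27l2a. The errors are standard errors from the fit of all 18 libraries, with 3 libraries a group.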

How the results depend on the processing

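The count of 246 rows called in DENSpm stayed between 169, with only the libraries compared, and 293, by DESeq2. It was 203 without a count filter, 255 with DESeq2 size factors and 186 to 253 on leaving out 1 library. Of the 246 rows, 125 were called in every alternative that tested them (95 higher, 30 lower). Of the 56 named rows called, 43 kept their call throughout, 12 lost it without some library, Srr lost it with only the libraries compared and 0 reversed. The replicate numbers were not taken as pairs: deviations of same-numbered libraries correlated at 0.0449, 0.0726 and 0.0485 across rows. With the replicate block 249 rows were called, 233 of them shared, and 0 of the 56 named rows lost their call, while Psme2 did.

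The 79 rows lower in vehicle became 123 with only the libraries compared and 42 to 61 on leaving out 1 library. The difference between DENSpm and vehicle stayed at 0 rows in every alternative. The 10 rows differing from DFMO became 26 by DESeq2, 17 on halved counts, 2 with only the libraries compared and 3 to 16 on leaving out 1 library. The 7 higher became 15, by DESeq2, 1, with only the libraries compared, and 1 to 10 on leaving out 1 library. The 3 lower became 11 by DESeq2, 5 without a count filter, 6 with at least 20 counts in 3 libraries, 7 on halved counts, 6 with the replicate block, 1 with only the libraries compared and 1 to 6 on leaving out 1 library. The causes were not tested.

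Among the named rows not called, leaving out 1 library turned the sign of the log2 fold change in DENSpm for 5. It ran from -0.20 to 0.071 for Rbbp4 (positive without DENSpm 2), from -0.016 to 0.21 for Sdr39u1 (negative without DENSpm 1) and from -0.0034 to 0.10 for Ddit3 (negative without DENSpm with cytokines 3). It ran from -0.018 to 0.13 for Mars (negative without DENSpm with cytokines 2 or DENSpm 1) and from -0.072 to 0.18 for Tsr1 (negative without DENSpm with cytokines 1 or 3 or DENSpm 1 or 2). At 454165 to 639625 counts a library, falls of rows under 20 CPM were not detectable.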
